A study of Mus musculus with 2 samples.

Results

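The cytosolic ribosome was followed through the transcripts of its own proteins. The genes described are those the array names as Rpl or Rps with a number, together with the stalk genes Rplp0, Rplp1 and Rplp2 and the gene Rpsa. The S6 kinase genes, pseudogene names and predicted names were left out. The array carried 86 such genes among 20879 named genes, 53 of the large and 33 of the small subunit. They were read by 174 probes, of which 173 were printed once. In 84 genes at least 1 probe was well above background on both arrays, and 169 of the 174 probes were. The 2 genes without such a probe, Rpl10l and Rpl3l, are copies of Rpl10 and Rpl3.

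The groups compared were both of primary pericytes from the cavernous tissue of the penis of C57BL/6 mice, grown in a medium with bovine serum and human pigment epithelium-derived factor. One group was held for 72 h in normal glucose (5 mmol, as labelled) and the other for 72 h in high glucose (30 mmol, as labelled). Each group is a pool of 3 samples read on 1 Agilent array with 1 dye, so there is no replicate of either condition, and no p-value is given. A difference below is one between these 2 pools, and neither animal-to-animal nor culture-to-culture spread is known.

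As background, a ribosome is built from ribosomal RNA and a fixed set of proteins, nearly all present in equal number. The small subunit decodes the messenger RNA and the large subunit joins the amino acids. A stalk of P proteins on the large subunit recruits the elongation factors. Transcripts of ribosomal proteins are among the most abundant in a growing cell. In mammals they begin with a run of pyrimidines, the terminal oligopyrimidine (TOP) tract, through which the kinase mTOR and the protein Larp1 set how well they are translated. An array measures the amount of transcript and not its translation.

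The run of pyrimidines is shown here because it is the feature that ribosomal protein transcripts are known to share. RefSeq promoters of assembly GRCm38.p6 were found for 65 of the 86 genes, as 77 entries since some genes have several starts. All entries of a chromosome, and entries without a gene symbol, were left out of the search. A gene without an entry here may therefore still have an annotated promoter. Each line gives 25 bases before and 15 bases after the annotated start, read along the transcribed direction, with the longest run of C and T in capitals. Genes with long runs are shown first, followed by the genes with the highest and the lowest ratio between the arrays, Rpl5 and Rps15. Rps6 lies at chr4:86857353-86857392 on the minus strand, Rps18 at chr17:33955651-33955690 (minus), Rpl15 at chr14:18270972-18271011 (minus) and Rpl35 at chr2:39005117-39005156 (minus). Rps10 lies at chr17:27635230-27635269 (minus), Rplp2 at chr7:141447626-141447665 (plus), Rpl5 at chr5:107900503-107900542 (plus) and Rps15 at chr10:80292406-80292445 (plus).
Rps6: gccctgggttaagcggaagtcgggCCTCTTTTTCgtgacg
Rps18: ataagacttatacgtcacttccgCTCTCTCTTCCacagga
Rpl15: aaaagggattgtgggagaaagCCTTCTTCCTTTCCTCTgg
Rpl35: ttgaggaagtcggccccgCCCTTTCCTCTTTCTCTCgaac
Rps10: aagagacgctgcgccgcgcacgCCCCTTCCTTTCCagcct
Rplp2: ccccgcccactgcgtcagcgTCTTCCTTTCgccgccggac
Rpl5: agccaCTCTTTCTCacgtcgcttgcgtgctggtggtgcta
Rps15: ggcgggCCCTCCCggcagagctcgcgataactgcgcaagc

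In Rps6 the run begins 1 base before the annotated start and in Rps18 it spans that start. In Rpl5 and Rps15 the longest run ends before the start that RefSeq gives. Over the 77 entries the longest run that touches the 25 bases on either side of the start had a median of 9 bases. Over all 32851 entries kept from the table it was 5. A run of at least 8 was present in 54.5% of the entries of ribosomal protein genes and in 24.1% of all. The letters CTTTC occurred within 25 bases of the start on the transcribed strand in 24.7% of these entries and in 6.8% of all entries, while on the other strand the shares were 9.1% and 6.1%. For CTTCC the shares were 27.3% and 10.6% on the transcribed strand, and 18.2% and 12.1% on the other. The longer CTCTTTC, which contains CTTTC, occurred in 9.1% and 0.7% on the transcribed strand and in 1.3% and 0.6% on the other. The letters CCGGAAG, the core bound by ETS factors, were found anywhere in the 300-base window of 33.8% of the entries and 8.9% of all, both strands counted, and overlap CTTCC read on the opposite strand. Such matches describe the annotated sequence and no factor was measured.

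**Figure D1:**
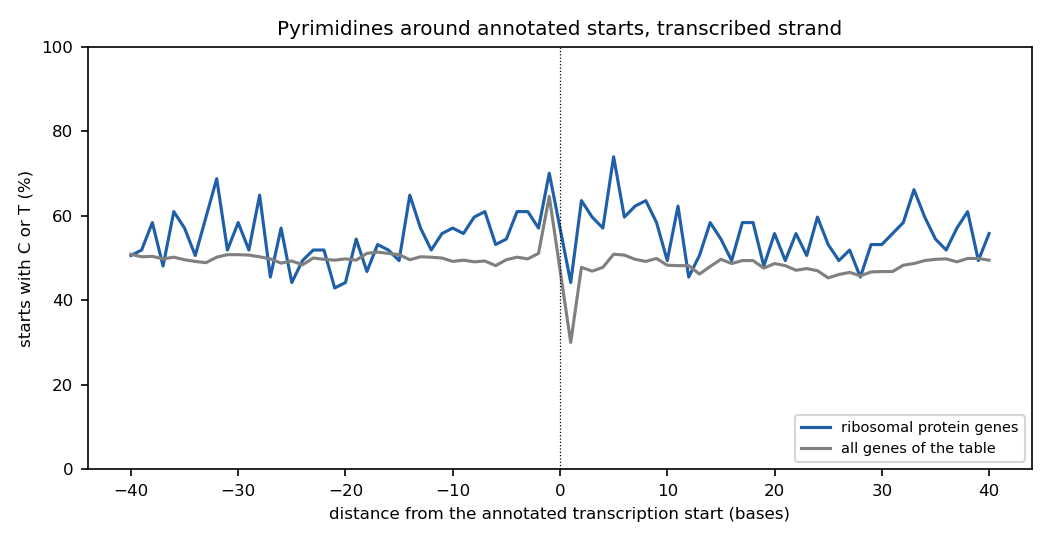
Share of annotated starts that have C or T at each base from 40 before to 40 after the transcription start, for the 77 promoter entries of ribosomal protein genes and for all 32851 entries. Just after the start the line of ribosomal protein genes lies above that of all genes, reaching 74.0% against 50.9% at the fifth base.

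The log2 ratios, here and throughout those of high glucose less normal glucose, were close to 0 with and without such a run. The median was 0.009 for the 38 measured members with a run of at least 8 bases and 0.015 for the 25 without. Over all measured genes of the table the medians were -0.005 for 3055 genes with a run and -0.007 for 8218 without. Annotated starts differ from those used in these cells by an unknown amount.

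Of the gene spots 56.3% passed the scanner software's test against background in the normal glucose array and 57.6% in the other, and no spot was saturated. The ratio of a spot repeated on the array had a median SD of 0.032 on the log2 scale over 93 probes with a signal of at least 4096. That SD was 0.20 over 38 probes below a signal of 128. It covers error within an array only. The labelled cell type was checked on its markers, and 9 of 10 pericyte markers were measured, Pdgfrb at processed signals of 17471 and 18161 in normal and high glucose among them. Kcnj8 was the one that did not pass on either array. All 4 smooth muscle markers were measured, Acta2 at 280589 and 270063 and Tagln at 256910 and 246134 in normal and high glucose, as were all 4 fibroblast markers, so these markers do not settle the identity of the cells. Of 5 endothelial markers 3 were measured, Kdr at 7379 and 7075 among them, while Cdh5 and Tek were not.

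Signals of the ribosomal protein genes were high on both arrays. The median over the brightest measured probes was 172688 in normal glucose and 161393 in high glucose, with a range from 257 to 370851 in normal and from 240 to 364467 in high glucose. In 78 of the 84 genes the signal in normal glucose was at least 50000. Before any scaling 78 of the 84 genes had the lower signal in high glucose. The like share over all measured genes was not counted, so this is not read as a trait of these genes. The 75th percentile of the high glucose array lay 0.08 below that of the other array on the log2 scale. The gap was not uniform: the median deposited values were 49.6 in normal and 48.9 in high glucose, closer together on that scale. All ratios below are after that percentile was subtracted from each array.

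After scaling the ribosomal protein genes barely differed between the 2 pools. Their median log2 ratio was 0.013, with quartiles of -0.013 and 0.044, against a median of -0.007 over all 14173 measured genes with quartiles of -0.081 and 0.072. Of the 84 genes 1, Rpl5, was at least 1.2-fold different, and 12.3% of all measured genes were. None reached 1.5-fold, which 2.78% of all measured genes did (1.59% higher in high glucose), and none reached 2-fold, which 0.903% did (0.487% higher). Counted over probes, 2 of 169 were past 1.2-fold, against 17.6% of all measured probes. A log2 ratio above 0 was found in 54 of 84 members (64.3%) and in 47.0% of all measured genes.

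Brightness moved with these counts. Over 502 other genes between the 5th and 95th percentile of the members' signal, the median was 0.007 and 56.4% were higher in high glucose. Over 135 others within the middle 2 quartiles of it, the median was 0.015 and 60.0% were higher. The part of signal in the members' ratios was not tested further. Of the 4626 other genes with a signal of at least 4096, 2.46% were at least 1.2-fold different. The direction of the count depended on the scaling. With each array centred on its median 9 members were higher and 75 lower, and 27.3% of all measured genes were higher. Under quantile normalization 37 were higher and 45 lower (46.1% of all genes higher). With another background correction (normexp), also followed by quantile normalization, 38 were higher and 46 lower (46.5% of all higher). With median pixels 2 were higher and 82 lower (19.0% of all higher). No direction is therefore given for the whole set.

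**Figure D2:**
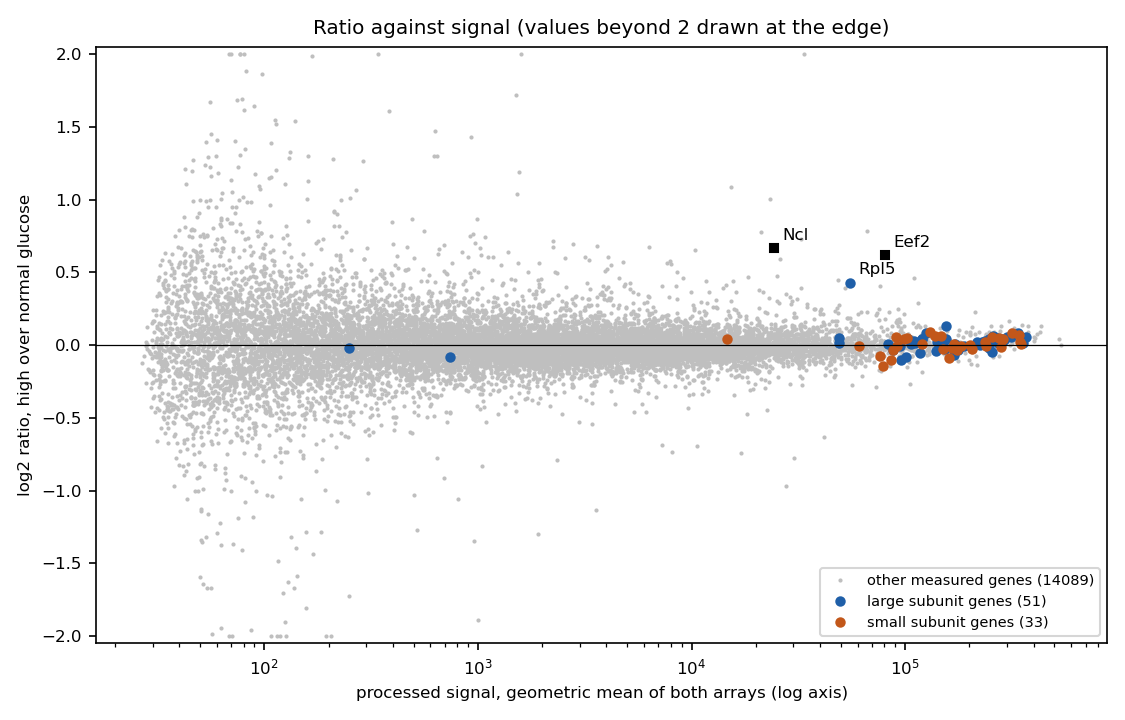
Log2 ratio between the arrays against processed signal for 14173 measured genes (1 brightest probe each), with 51 large subunit genes in blue and 33 small subunit genes in orange. Most ribosomal protein genes sit at the bright end, and all lie between -0.15 and 0.13 except Rpl5 at 0.43. Black squares mark Eef2 and Ncl, and values beyond 2 are drawn at the edge.

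The spread among members was small. Without Rpl5 the SD over the other 83 genes was 0.049 on the log2 scale, and with it 0.067. It was 0.093 over the 502 other genes of like signal. Of the 84 genes, 67 (79.8%) lay within 2 repeat-spot SDs (0.064) of 0, with 9 above and 8 below. Among the 502 others 65.7% lay within that distance, 109 above and 63 below. With this scaling most members therefore differed between the pools by no more than 2 SDs of a repeated bright spot. With median pixels the members' median was -0.089, beyond that distance, while that of all measured genes was -0.114. The SD is that of probes with a signal of at least 4096. It was 0.099 between signals of 128 and 512, where the dim member Rpl39l lies (257 in normal glucose).

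Rpl5 stood apart from the rest of the large subunit. Its protein binds the smallest ribosomal RNA together with Rpl11, and both can hold back Mdm2, the ligase that degrades p53. The processed signal of its probe was 48921 in normal and 62376 in high glucose, a scaled ratio of 1.35-fold (log2 ratio 0.43), and it was 1 of 6 members with a higher unscaled signal in high glucose. The log2 ratio from median pixels was 0.35. The 12 dim neighbours of the spot were shifted by -0.018 and its 12 bright neighbours had a median log2 ratio of 0.025, so the surrounding spots did not move with it. Rpl5 rested on 1 probe printed once, and no second probe was matched to the gene by RefSeq accession. Among other genes with a signal of at least 4096, 25 of 4626 had a ratio at least as high.

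Rpl11, the partner of Rpl5, went with the rest of the large subunit. Its brightest probe read 267965 in normal and 245230 in high glucose, a log2 ratio of -0.048, and its other probes gave 0.021 and -0.007. The stalk genes lay between 0.015 and 0.083 on the log2 scale. Rplp0, the base of the stalk, read 370851 and 364467 in normal and high glucose (log2 ratio 0.055), Rplp1 280005 and 267551 (0.015) and Rplp2 335842 and 336519 (0.083). The other probes of Rplp0 gave 0.010 and -0.014, so its value varied between probes by more than its distance from 0.

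After Rpl5 the highest large subunit genes were Rpl19 and Rpl17. Rpl19 read 152600 in normal and 157792 in high glucose, a log2 ratio of 0.13, from 1 probe whose 14 bright neighbours had a median of 0.10 and whose 7 dim neighbours were shifted by 0.22. Those around it were higher as well. The ratio was 0.116 once a smooth trend over the array was removed, 0.019 from median pixels and 0.067 with median centring. The part of its nearest spots was not tested beyond that. Rpl17, which lines the exit of the nascent chain, read 124491 and 125059 with its brightest probe (0.087). Its other 6 probes ranged from -0.062 to 0.027.

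At the low end of the large subunit were Rpl21, the copy Rpl7l1, which is described with the other copies, and Rpl3. Rpl21 read 101528 in normal and 89383 in high glucose, a log2 ratio of -0.10, and its second probe, at signals of 949 and 836, gave the same value. Another gave -0.015, and the first had 16 bright neighbours with a median of -0.082 and 6 dim neighbours shifted the other way, by 0.365. Rpl3, which lies close to the catalytic centre, read 107195 and 95956 (-0.079). Rpl13a, a protein known for leaving the ribosome upon interferon signalling, read 175989 and 167405 (0.008), with 0.089 and 0.062 from its other probes.

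**Figure D3:**
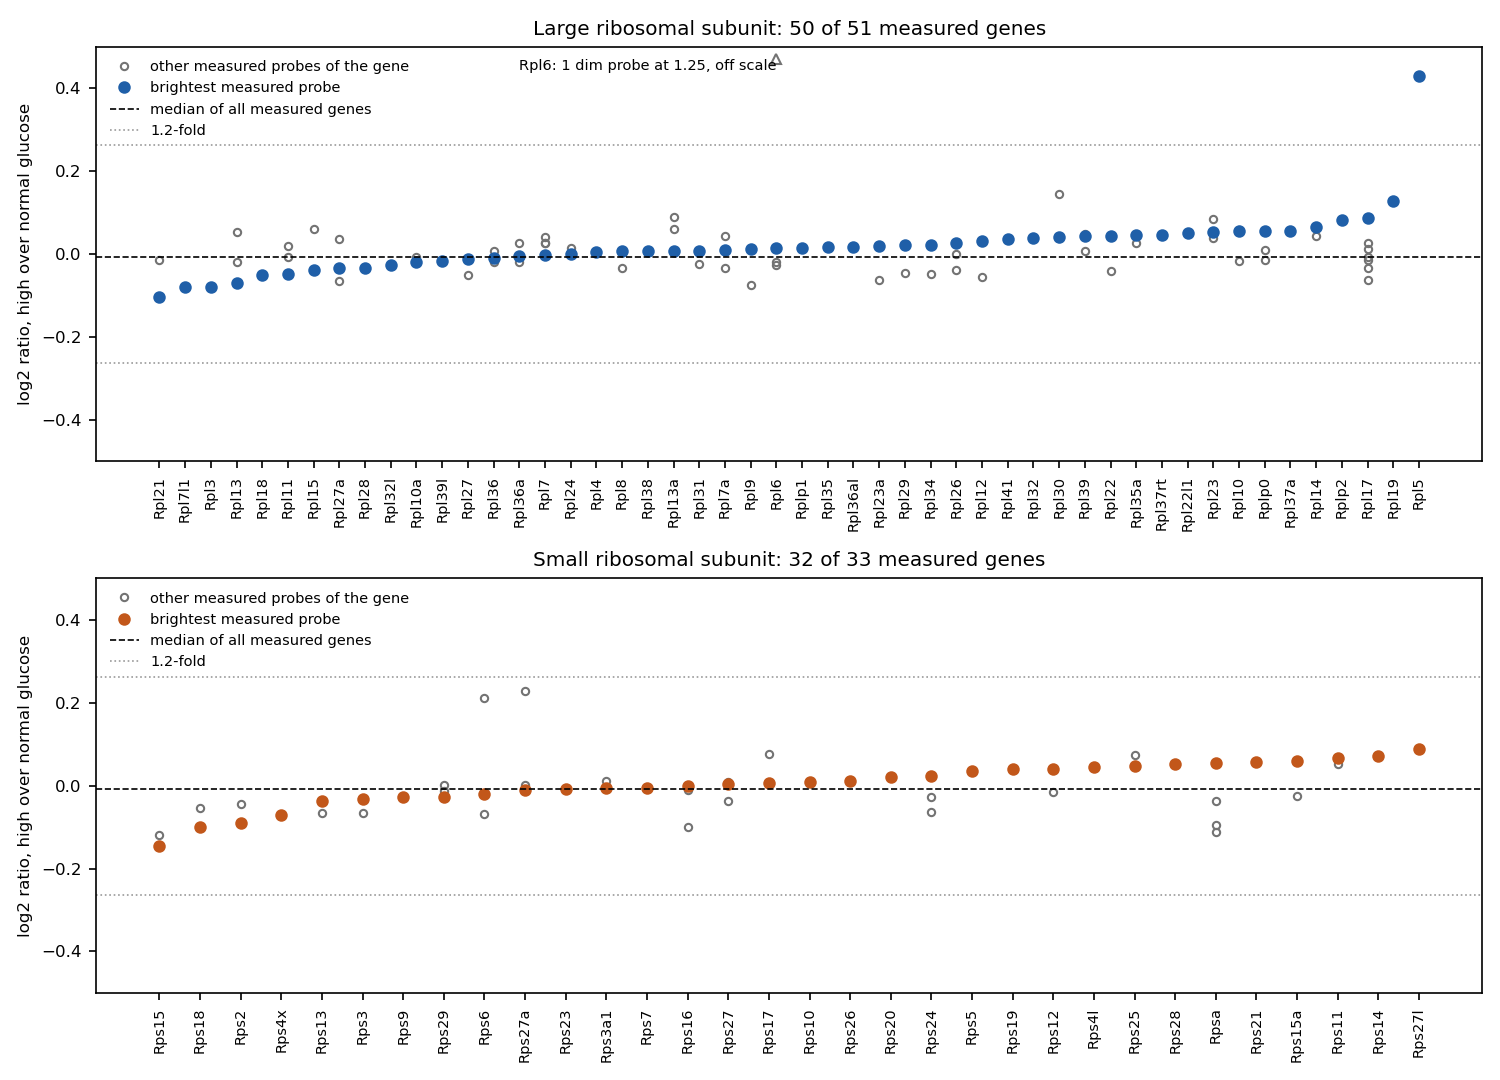
Log2 ratio between the arrays for measured ribosomal protein genes, ordered by value within the large (50 of 51 genes) and small (32 of 33 genes) subunit, with filled points for the brightest probe, open points for its other measured probes, a dashed line for the median of all measured genes and dotted lines at 1.2-fold. Rpl5 is the only filled point beyond a dotted line, and a dim probe of Rpl6 at 1.25 is off the scale.

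The small subunit had a median log2 ratio of 0.009 over 33 genes, with 19 above 0. The large subunit had 0.015 over 51 genes, with 35 above 0, and 47.0% of all measured genes were above 0. The difference between the subunits was not tested. No small subunit gene reached 1.2-fold in either direction. Over all measured genes 6.82% did so upward and 5.5% downward, and 2.46% of other genes with a signal of at least 4096 did so in either direction.

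Rps15 was the lowest member, at the opposite end from Rpl5. Its protein sits near the decoding site. The probe read 85173 in normal and 72798 in high glucose, 1.11-fold lower (log2 ratio -0.15). A second probe read 43729 and 38075, a log2 ratio of -0.12, so both pointed the same way beyond 2 repeat-spot SDs. Bright neighbours had medians of -0.013 and 0.14 around these spots. Rps15 was the lowest member under the 13 settings in which genes were ranked, apart from that without a filter on dim probes, where it came second after Rpl10l.

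Rps18 and Rps2 followed. Rps18, a neighbour of Rps15 in the head of the small subunit, read 91852 in normal and 81072 in high glucose (log2 ratio -0.10), with -0.054 from its second probe. Rps2, at the entry of the messenger RNA, read 170658 and 151646 (-0.090), with -0.044 from its second probe. The ratio of Rps2 was -0.032 once a smooth trend over the array was removed, -0.055 under quantile normalization, -0.151 with median centring and -0.164 with median pixels. In both genes the direction was shared by the probes while the second value lay within the spot error. With median centring and with median pixels, which also lower the median of all genes, Rps18 was at -0.161 and -0.16, Rps15 at -0.207 and -0.265, and Rpl21 at -0.165 and -0.191.

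Rps6, the substrate of the S6 kinases downstream of mTOR, read 170874 in normal and 159351 in high glucose (log2 ratio -0.020). A second probe gave -0.069 and another, with signals of 9608 and 10522, gave 0.21. Rps3, at the entry of the messenger RNA, read 91374 and 84473 (-0.033) and its second probe gave -0.066. Rps19, the gene most often mutated in Diamond-Blackfan anaemia, read 100191 and 97431 (0.040) from 1 probe.

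Rps27a is made as a fusion with ubiquitin, and Rpsa doubles as a laminin receptor. Rps27a read 289189 in normal and 271470 in high glucose (log2 ratio -0.011), with 0.002 from a bright second probe and 0.23 from a dim one at signals of 94.8 and 105. Rpsa read 256030 and 251295 (0.053), but its other 3 probes gave -0.094, -0.036 and -0.11. The brightest probe of Rpsa was thus the only one of 4 above 0.

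Some members are copies of another ribosomal protein gene, many of them with restricted expression. Of the 10 on the array 8 were measured. Rps27l, a copy of Rps27 known as a p53 target, read 129746 in normal and 130440 in high glucose (log2 ratio 0.088) from 1 probe. The ratio of Rps27l was 0.027 with median centring, 0.045 with normexp and quantile normalization and -0.042 with median pixels. The median of all measured genes was -0.068, -0.008 and -0.114 in these settings. The sign of Rps27l thus depended on the processing, while each value lay above that median. Rps27 itself read 206477 and 195696 (0.003), and its other 3 probes gave between -0.037 and 0.008. Rpl22l1, which can stand in for Rpl22, read 49470 and 48519 (0.052) beside 0.044 for Rpl22.

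The remaining copies were close to 0 as well. Rpl36al read 49874 in normal and 47742 in high glucose (0.017, with Rpl36a at -0.005), and Rps4l 14847 and 14479 (0.044, with Rps4x at -0.071). Rpl32l gave -0.026 beside 0.040 for Rpl32 and Rpl37rt gave 0.046. Rpl7l1, which acts in ribosome assembly, read 782 and 699 (-0.080, with Rpl7 at -0.003), and Rpl39l, a copy typical of the testis, 257 and 240 (-0.017, with Rpl39 at 0.043). No measured copy with a measured parent gene differed from it by 1.2-fold in ratio.

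Rpl3l, the copy of Rpl3 in striated muscle, read 6.1 in normal and 5.3 in high glucose, not well above background in both. Rpl10l, a copy of Rpl10 in the testis, had 2 probes that each passed on 1 array only. The first read 134 in normal and 5.6 in high glucose, at least 7.72-fold lower, and the second read 5.5 and 82.7, at least 4.26-fold higher. Each bound takes, for the array where the probe did not pass, the higher of its own signal and the lowest signal of any probe that did, which was 16.5 in high and 20.5 in normal glucose. As the probes oppose each other, no direction can be given for Rpl10l, while Rpl10 gave 0.055, -0.016 and 0.059 from its 3 probes. A dim probe of Rps15a was not measured either (38.8 and 22.8, at least 1.61-fold lower, with its own signal as the bound), while its brightest probe gave 0.060.

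How far a gene's probes agree sets the precision of its value. In 51 genes at least 2 probes were measured. All probes were above 0 in 11 of these genes, all below 0 in 9, and they were of mixed sign in 31. Over all 3629 genes with at least 2 measured probes 24.6% had all above and 31% all below. The range between the probes of a member had a median of 0.069, against 0.11 over all such genes. The ratios of the brightest and the second probe had a Pearson correlation of 0.45 and a Spearman correlation of 0.32 over the 51 genes, and 0.22 and 0.25 over the 3629. These are correlations across genes on the same 2 arrays, which share their scaling, and genes are not independent replicates.

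**Figure D4:**
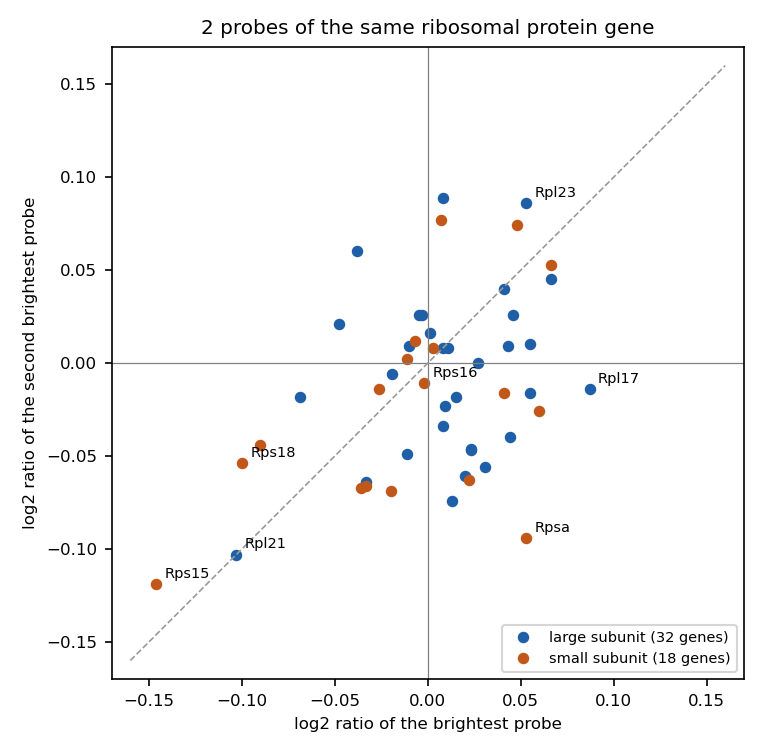
Log2 ratio of the second brightest against the brightest measured probe for 50 of the 51 ribosomal protein genes with at least 2 measured probes, with the diagonal dashed. Rps15, Rpl21 and Rps18 lie along the diagonal away from 0, while Rpsa and Rpl17 change sign between probes.

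Among probes with a signal of at least 4096 in normal glucose, the SD between probes of a gene was 0.045 over 122 probes of 48 genes, and the SD over the means of these genes was 0.038. A mean over several probes varies less than a single probe, so these SDs are not on the same footing, and Rpl5, with 1 probe, is not among the 48 genes. With dimmer probes included the SD between probes was 0.13 over 136 probes of 51 genes. The probe farthest from the others of its gene was one of Rpl6, which read 77.1 in normal and 174 in high glucose (log2 ratio 1.25) while the other 3 probes of Rpl6 gave 0.015, -0.018 and -0.025. The median pixel ratio of that dim probe was 0.75.

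Rpl23 gave the error of a member directly, since a probe of it was printed 10 times. Across these spots the signal ran from 15711 to 17536 in normal and from 15359 to 16938 in high glucose, so the ranges overlapped. The scaled log2 ratio had a mean of 0.039 with an SD of 0.027 over 10 spots of the same 2 arrays and ranged from 0.018 to 0.11. The other probes of Rpl23 gave 0.053 and 0.086. Ribosomal protein genes also have many processed pseudogenes: RefSeq names 319 loci as pseudogenes of 63 of the 86 members. Which copies a probe reads was not tested.

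Proteins of the ribosome that bear other names had ratios near 0 too. Fau, a fusion whose product is a small subunit protein, read 346500 in normal and 335807 in high glucose (log2 ratio 0.035). Rack1, a scaffold on the small subunit, gave 0.009. With TOP genes such as Tpt1 (0.025), Npm1 (-0.019) and Naca (-0.022) they form a list of 10 measured genes with a median of 0.013. None of the 10 reached 1.2-fold, which 12.3% of all measured genes did, and 2.46% of other genes with a signal of at least 4096. Vim was highest at 0.063 and Hnrnpa1 lowest at -0.092, with 0.26 from its second probe.

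Among elongation factors Eef2 had the highest ratio. Eef2, which moves the ribosome along the messenger RNA, read 66501 in normal and 96476 in high glucose, a log2 ratio of 0.62 from 1 probe. Eef2k, the kinase that inactivates it, gave 0.28 and 0.41 with its 2 brightest probes at dimmer signals. Eef1a1, which delivers the aminoacyl-tRNA, read 184499 and 176954 (0.020) and Eef1g was lowest at -0.13. Of the 8 measured genes 2 were at least 1.2-fold higher and none lower, with a list median of 0.038. Over all measured genes 6.82% were higher by that much and 5.5% lower.

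Initiation factors were spread around a median of -0.023, with 10 of 34 above 0, against 47.0% of all measured genes. Of the 34 genes 1 was at least 1.2-fold lower, Eif5b at -0.33 from a dim probe (49.5 in normal, 37.2 in high glucose). None was higher by that much, and the shares of all measured genes were 5.5% lower and 6.82% higher. Eif1 was highest at 0.15, and its second probe gave -0.11.

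Genes of ribosome biogenesis, which process ribosomal RNA and put the subunits together in the nucleolus, had a median of -0.021 over 62 genes. Of these 24 were above 0, against 47.0% of all measured genes. Of the 62 genes 3 were at least 1.2-fold higher and 1 lower, against 6.82% and 5.5% of all measured genes. Ncl (nucleolin) was highest, with 19859 in normal and 29864 in high glucose (log2 ratio 0.67), but its second probe gave -0.040 and the median over its probes was 0.315. Utp14a, a factor of small subunit assembly, was lowest at -0.42 and its second probe gave -0.38. The RNA polymerase I list, which transcribes ribosomal RNA, had a median of -0.021 over 19 genes. In it Taf1a was lowest at -0.56 (166 in normal, 106 in high glucose) and Cd3eap highest at 0.25.

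Upstream, the list of mTOR and Larp1 control had a median of -0.004 over 21 genes. In it 2 were at least 1.2-fold higher and 1 lower, against 6.82% and 5.5% of all measured genes. Mtor gave 0.067, Larp1 0.060 with -0.16 from its second probe, and Myc, a driver of ribosomal protein transcription, -0.035. Rps6kb1 (S6 kinase) gave -0.093, with -0.11 and 0.066 from its dimmer measured probes. Eif4ebp1, the inhibitor of cap binding that mTOR controls, read 46581 in normal and 38258 in high glucose (-0.20). Akt1s1, an inhibitor of the mTOR complex, was highest at 0.52 and Tsc2, which restrains mTOR, lowest at -0.36, each from 1 probe. Akt1s1 read 827 in normal and 1120 in high glucose, and Tsc2, which was dim, 111 and 81.3. These are transcript levels, and phosphorylation was not measured.

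The list of ribosomal stress and p53 had a median of 0.039 over 8 genes. Mdm2, the ligase that free Rpl5 and Rpl11 bind, read 90134 in normal and 79402 in high glucose (log2 ratio -0.10). Mdm4 was highest at 0.42 but had -0.010 from its second probe. Cdkn2a, lowest at -0.29, gave -0.93 from its second probe.

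Compared with the other large protein assemblies, cytosolic ribosomal proteins had a like spread. Mitochondrial ribosomal proteins had a median of -0.003 over 77 measured genes, an SD of 0.073 and 1 gene past 1.2-fold, Mrps6, at 42668 in normal and 55079 in high glucose (0.45). Their lowest was Mrpl9 at -0.16. Proteasome subunits had a median of -0.011 over 37 genes, an SD of 0.074 and none past 1.2-fold, with Psma4 at -0.18 and Psmd3 at 0.17. In each assembly nearly all subunits lay within 1.2-fold, which 12.3% of all measured genes passed. Most of these subunits were bright, and only 2.46% of the other genes with a signal of at least 4096 passed it. The few changes are therefore not read as a trait of these assemblies. No test of the differences among the assemblies is possible with 1 array a condition.

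**Figure D5:**
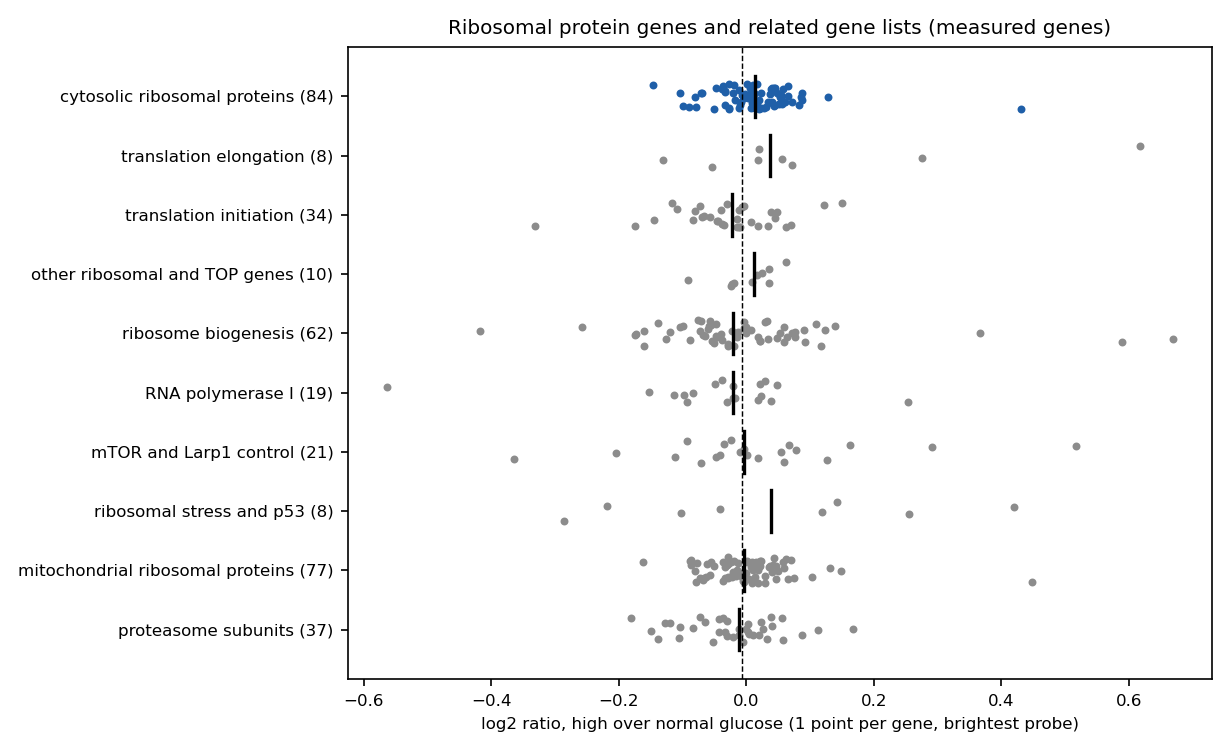
Log2 ratio between the arrays for each measured gene (brightest probe) of the ribosomal proteins, in blue, and of 9 related lists, in grey, with black bars for list medians and a dashed line for the median of all measured genes. The ribosomal proteins cluster near 0 with Rpl5 alone at 0.43, and list medians run from -0.023 to 0.039.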

How the data were processed

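Each pool was read on 1 Agilent 1-colour array. The authors deposited intensity values per spot; per the file headers the software was Feature Extraction 11.5.1.1, while the submitters' processing notes name version 9.3.2.1. The deposited value table matched the scanner signal for 55249 of 55249 probes printed once (relative tolerance 0.0001), so its values are linear and uncentred; its column medians were 49.6 (normal) and 48.9 (high glucose). Flags and positions of spots, an other kind of value, are in the deposited scanner files.

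Spots flagged as outliers on either array (315) were left out, log2 signals were averaged per probe, and from each array the 75th percentile of its probes (signals of 774 and 732) was subtracted. A probe counted as measured if at least 0.5 of its spots were well above background on both arrays and none saturated. Probes were named by RefSeq accession (GRCm38.p6 table; 27496 of 55663 matched 1 symbol), and the brightest measured probe stood for a gene. Symbols with the suffixes a, a1, x, l, al, l1 or rt were kept as members; Rps19bp1 and Rps23rg1 were not. A shift of dim neighbours is the median log2 ratio of median pixels over spots within 2 rows and columns that failed the background test on either array, less that of all such spots; it needs 3 neighbours.

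Named genes are the 6 highest and 6 lowest members, the stalk, Rpsa, Rps6, Rpl5, Rpl11, Rps19, Rpl13a, Rps3, Rps27a, copies with their parent genes, members not measured or with probes over 0.5 apart, each list's extremes and selected translation and mTOR genes. Tpt1, Npm1, Naca, Eef2k, Mdm2, Rpl23 and the genes under other observations were added after their values were seen. Some genes that this rule names are not reported here, though they enter the counts. Members and lists were chosen with earlier results of these data known. The counting was tested on simulated data over 14173 genes. The second array was the normal glucose array with error of the size of the repeat-spot SD added. In it 196 of 200 genes changed by 0.5 (log2) passed 1.2-fold, as did 358 unchanged genes. Error between pools or between arrays was not simulated, so these counts check the code and do not carry over to the real comparison. Python 3.11.15, numpy 2.4.6, pandas 2.3.3 and limma 3.58.1 were used.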

Additional observations from a re-analysis of the deposited data

How the results depend on the processing

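The alternatives covered scaling, background, flags, filters, probe choice and position; leaving out Rpl5, and the difference between the members' median and that of all measured genes, were added after seeing the data. Across 14 alternatives the members' median ran from -0.089 to 0.021. It was -0.048 with median centring and -0.089 with median pixels minus local background, where the median of all measured genes was -0.068 and -0.114. Members above 0 then numbered 9 and 2 in place of 54. The share of all measured genes above 0 was 27.3% and 19.0% in place of 47.0%. Relative to all genes the members' median stayed between 0.0 and 0.048. The count past 1.2-fold was 2 with median pixels (Rpl5 and Rps15), 2 without a filter on dim probes (Rpl5 and Rpl10l), and 0 without Rpl5. Rpl5 itself ranged from 0.346 to 0.447 and was the highest member in each of the 13 rankings. The normexp alternative was run on median signals, as spot means were not used here, and was followed by quantile normalization. Precision is limited by 1 array per condition and, below a signal of 128, by spot error. No paired analysis was possible because each group has 1 sample.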

Other observations

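Names next to the ribosomal protein genes that do not encode a part of the ribosome were read as well. Rps19bp1, a nucleolar binding partner of Rps19, read 12176 in normal and 10797 in high glucose (log2 ratio -0.093), and Rps23rg1, a retrogene of Rps23, 479 and 436 (-0.055). The pseudogene Rpl31-ps12 read 124792 and 113752 (-0.053), with -0.062 from its second probe, beside 0.009 for Rpl31. Rpl34-ps1 gave 0.006 beside 0.023 for Rpl34, and Rps15a-ps6, with signals of 197 and 163, -0.19 beside 0.060 for Rps15a. Among the kinases named Rps6ka, Rps6ka1 gave 0.16, Rps6ka2 0.079 and Rps6ka5 0.36 (139 in normal and 169 in high glucose). The brightest probes of Rps6ka3, Rps6ka4 and Rps6ka6 lay between -0.012 and 0.028, with -0.059 from a second probe of Rps6ka3. Rps6kl1 gave -0.52 from a dim probe (96.9 and 64.1).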
